A study of Mus musculus with 10 samples.

Results

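Hox genes and their TALE cofactors were described in RNA-seq libraries of LT-HSCs, the long-term blood stem cells, sorted from fetal liver. The members were the rows of the gene count table whose symbol is a numbered Hoxa, Hoxb, Hoxc or Hoxd gene, together with Meis2, Meis3, Pbx2, Pbx3, Pbx4, Pknox1 and Pknox2. This rule gave 30 of the 17404 genes in the table: 9 Hoxa, 9 Hoxb, 3 Hoxc, 2 Hoxd and 7 TALE genes. Of 39 Hox genes in the annotation, 16 had no row in the table, and 11 of these 16 were listed at 0 in the transcript tables of all libraries.

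The libraries came from E14.5 mouse embryos. The KO group (n = 6) carried the Tnfrsf11a Cre allele and Spi1 f/f. The WT group (n = 4) was Tnfrsf11a+/+; Spi1 f/f, so the floxed Spi1 alleles were shared by both groups and the groups differed by the Cre allele. Cre driven from Tnfrsf11a acts in macrophage precursors, in which loss of Spi1 (Pu.1) blocks macrophage formation, and the comparison asks whether LT-HSCs differ when fetal liver macrophages are missing. The sorted cells were not the intended site of recombination, so Spi1, at 9.10 to 101 counts per 1000000 (CPM) in KO and 6.22 to 50.1 CPM in WT, gave no check of the genotype labels. Nothing in the labels tied libraries to litters, so p-values measured the spread between these libraries.

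Hox genes encode homeodomain transcription factors and lie in clusters in the order in which they are used along the body axis. Low paralogue numbers mark the 3′ end of a cluster and high numbers the 5′ end. In blood, Hoxa9 and its neighbours are most active in stem and progenitor cells and decline with differentiation. The TALE proteins Meis, Pknox (Prep) and Pbx are homeodomain proteins that bind DNA together with Hox proteins, and Pbx proteins pair with Meis or Pknox proteins for entry into the nucleus. Hox and Meis genes are also used outside blood, among others in endothelium and mesenchyme.

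Library depth ran from 5315435 to 30941726 gene counts in KO and from 7633446 to 18256010 in WT. All 10 LT-HSC markers were detected, with a summed level of 936 to 1908 CPM in KO and 581 to 857 CPM in WT. The 8 endothelial markers (Kdr, Cdh5, Stab2, Lyve1, Pecam1, Emcn, Tie1 and Esam) were all detected too, and their sum exceeded that of the LT-HSC markers in 8 of 10 libraries, at 1396 to 6892 CPM in KO and 405 to 4375 CPM in WT. The lowest endothelial sum, 405 CPM, was that of WT 15416, and the highest, 6892 CPM, that of KO 15409. These 2 libraries also stood apart in the members, and for members named with library values and for cluster medians, what leaving both out moves by over 1.5 times is given with and without them. Xist was at 4.38 to 7.62 transcripts per 1000000 (TPM) in WT, at 25.4 and 22.3 TPM in KO 15406 and KO 15409, and at most 0.390 TPM in the other KO libraries, so this transcript of female cells was also spread unevenly over the groups.

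The DNA just upstream of the start is shown for the neighbours Hoxa9 and Hoxa10, and for Hoxa2, whose window held each motif searched. For Hoxa9 and Hoxa10, 5 of 6 KO libraries lay above every WT library, as they also did for Hoxa6 and Hoxb3. How many of all genes showed this was not counted. The sequences are the 250 bases before the RefSeq start (GRCm38.p6), read 5′ to 3′ on the minus strand, at chr6:52227371-52227620 for Hoxa9, chr6:52234940-52235189 for a Hoxa10 start and chr6:52164832-52165081 for Hoxa2. Capitals mark matches on either strand to the homeodomain core TAAT, to the Pbx-Hox motif TGATNNAT and to the Meis and Pknox motif TGACAG.
Hoxa9: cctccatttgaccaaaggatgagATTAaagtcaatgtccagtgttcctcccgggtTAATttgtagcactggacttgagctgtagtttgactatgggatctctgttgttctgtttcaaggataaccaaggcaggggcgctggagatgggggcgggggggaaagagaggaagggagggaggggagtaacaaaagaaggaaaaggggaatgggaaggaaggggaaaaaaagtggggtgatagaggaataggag
Hoxa10: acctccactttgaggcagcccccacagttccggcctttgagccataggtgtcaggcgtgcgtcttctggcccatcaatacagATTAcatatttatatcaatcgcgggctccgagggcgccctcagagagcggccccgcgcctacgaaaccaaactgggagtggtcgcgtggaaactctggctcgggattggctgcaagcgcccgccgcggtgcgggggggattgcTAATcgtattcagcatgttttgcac
Hoxa2: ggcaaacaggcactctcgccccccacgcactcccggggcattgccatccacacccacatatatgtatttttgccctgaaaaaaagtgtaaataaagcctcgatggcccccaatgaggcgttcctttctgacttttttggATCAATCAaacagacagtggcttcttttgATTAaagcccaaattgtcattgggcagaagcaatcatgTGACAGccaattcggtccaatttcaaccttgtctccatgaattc

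A promoter entry was found for 16 members, with 17 windows, and for the other 14 members none was used. TAAT was present in 12 of the 17 windows, against 54.9% of 32851 promoter windows of the same length. TGATNNAT was present in the windows of Hoxa2, Hoxb1 and Hoxb8, against 7.68% of all windows, and TGACAG in those of Hoxa2 and Hoxa3, against 15.9%. The matches did not overlap one another in the windows shown, and a match is only a stretch of letters. The Hoxa9 window had 49.6% G and C and 3 CpG, while that of Hoxa5 had 63.6% and 28 CpG.

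Inside the Hoxa9 gene, in the exon of its minor transcript Hoxa9-205, lies the miRNA gene Mir196b (mature miR-196b-5p at chr6:52230129-52230150, minus strand). The Hoxb cluster carries Mir196a-1, whose mature form has the same seed. Mature miRNAs were not measured, and the sequences (RefSeq) are shown because the miR-196 seed is shared by the Hoxa and Hoxb clusters (bases 2 to 8 in capitals).
miR-196b-5p: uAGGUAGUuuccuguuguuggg
miR-196a-5p: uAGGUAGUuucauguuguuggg

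Levels of different genes were compared per length, as TPM summed over the transcripts of a gene. In WT the highest member was Meis2 at 11.9 ± 10.3 TPM (SD, n = 4), followed by Pbx2 at 6.46 ± 2.27, Pknox1 at 6.21 ± 1.52, Pbx3 at 5.72 ± 1.69, Hoxa9 at 5.55 ± 4.14 and Meis3 at 5.11 ± 5.20 TPM. Hoxa5 (4.62 ± 3.59), Hoxa7 (4.59 ± 3.91) and Hoxb5 (3.49 ± 2.98 TPM) had lower means. Neighbours in this order differed by less than the larger of their SDs. A WT mean of at least 1 TPM was reached by 6 of 9 Hoxa, 2 of 9 Hoxb and 6 of 7 TALE genes, and by none of the 3 Hoxc and 2 Hoxd genes, whose highest WT mean was 0.106 TPM.

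In KO the order was headed by Hoxa9 at 29.8 ± 17.8 TPM (SD, n = 6), with Meis2 at 26.3 ± 15.5, Hoxa7 at 15.6 ± 10.4, Pknox1 at 11.9 ± 3.38 and Hoxa5 at 9.61 ± 0.892 TPM. The summed TPM of the Hoxa cluster ran from 44.9 to 113 in KO and from 4.71 to 44.0 in WT, and that of the Hoxb cluster from 7.71 to 24.4 in KO and from 0.184 to 10.8 in WT. WT 15416 had counts for only 10 of the 23 Hox genes and for 2 of the 9 Hoxb genes, at a depth of 14184429 counts, whereas KO 15406, the shallowest library at 5315435 counts, had counts for 19. TPM served for the order of genes within a group and the tests rest on counts, so TPM values of KO and WT are set side by side as a description only. TPM set KO further above WT than CPM did: Pknox1 averaged 11.9 against 6.21 TPM but 40.0 against 30.4 CPM.

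**Figure D1:**
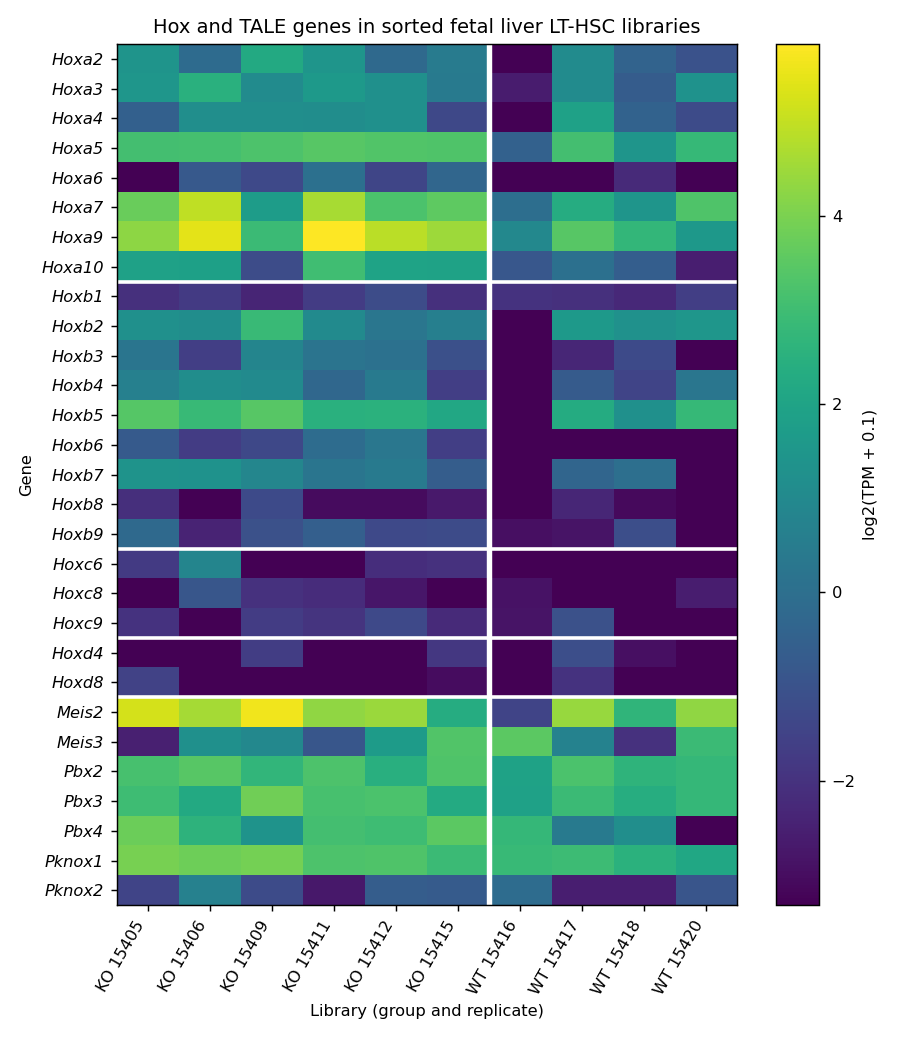
Level of 29 members (rows, by cluster and paralogue number, then TALE genes) in the 6 KO and 4 WT libraries (columns), as log2(TPM + 0.1). Hoxa9 or Meis2 was the highest of them in each KO library. The Hoxc and Hoxd rows were mostly dark, with Hoxc6 in KO 15406, at 1.69 TPM, the highest of their values. WT 15416 was dark across the Hoxb rows.

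Of the 30 members, 2 rose in KO at an adjusted p below 0.1 (edgeR quasi-likelihood test over 16725 genes), Hoxa9 and Hoxb6, and none fell. Over all genes tested the share was 1.32% higher and 2.67% lower. All 30 members passed the filter of 11 counts in total, among them Hoxb6 and Hoxc6, which had no WT count. These 2 genes passed it through their KO counts alone, so they could be called higher or not called, but not lower. At an unadjusted p below 0.05, 5 members, Hoxb6 and Hoxc6 among them, were higher and none lower, where 8.60% and 10.2% of all genes were. DESeq2 with the settings of the study called Hoxa9, Hoxa10 and Hoxb6 higher and no member lower (3.5% of all genes higher and 3.29% lower), and without a fold-change threshold Hoxb3 too (5.97% and 6.85%).

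The calls depended on which libraries were in the fit, for all genes as for the members. No member passed in edgeR without KO 15405, 15406, 15411, 15412 or 15415 or without WT 15416. In these fits no gene of the whole table was called, apart from 1 higher gene (0.00604%) without KO 15411, while 3 to 5 members were higher and none lower at an unadjusted p below 0.05, where 6.47% to 7.91% of all genes were higher and 7.93% to 10% lower. Without KO 15409, Hoxa9, Hoxa10 and Hoxb6 passed, where 2.44% of all genes were higher and 3.6% lower. Without WT 15417, Hoxa9 and Hoxb6 passed (1.25% higher and 3.19% lower), and Hoxb6 alone passed without WT 15418 (1.26% and 2.41%) or WT 15420 (1.35% and 2.71%). Hoxa9 alone passed without both KO 15409 and WT 15416 (1.59% and 1.77%) and with the stricter count filter filterByExpr (2.39% and 4.73%), which left 21 members. With log2 CPM of Xist as a covariate no gene passed, and 3 members were higher and none lower at an unadjusted p below 0.05 (edgeR), where 5.09% of all genes were higher and 8.95% lower.

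The Hoxa cluster carried most of the Hox reads. Its median log2 fold change was 1.04 over 9 genes, beside 0.06 over all genes tested, and 1 of 9 genes passed the threshold. The median was 0.62 without WT 15416, 1.66 without WT 15417 and 0.42 without KO 15409 and WT 15416. Hoxa9, a factor of stem and progenitor cell expansion and a driver of leukemia when overexpressed, had 29.9, 58.8, 9.42, 72.1, 51.3 and 42.9 CPM in the KO libraries, which are listed throughout in the order 15405, 15406, 15409, 15411, 15412 and 15415. The WT libraries, in the order 15416, 15417, 15418 and 15420, had 4.93, 17.0, 12.6 and 6.65 CPM. The 5 other KO libraries lay above every WT library, while KO 15409 lay within the WT range, so the groups overlapped. Hoxa9 rose by 2.09 on the log2 scale (SE 0.53, adjusted p = 0.0836, edgeR), a 4.26-fold difference. With log2 CPM of Xist as a covariate the log2 fold change was 1.83 with an adjusted p of 0.283 (edgeR). Without KO 15409 it was 2.30 (adjusted p = 0.0494), without WT 15416 it was 1.86 (adjusted p = 0.181), and without both it was 2.06 (adjusted p = 0.0599, edgeR).

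Hoxa10, the neighbour of Hoxa9 and likewise a gene of the 5′ end expressed in blood progenitors, is named here because its fold change and the order of its libraries were seen to be like those of Hoxa9. It had 0.487 to 11.97 CPM in KO and 0.142 to 2.07 CPM in WT, with 5 of 6 KO libraries above every WT library and KO 15409 the exception again. Its log2 fold change was 2.45 (SE 0.86, adjusted p = 0.159, edgeR), and it passed the threshold in DESeq2 with the settings of the study (adjusted p = 0.0468) and in edgeR without KO 15409 (adjusted p = 0.0723). It did not pass without WT 15416 (adjusted p = 0.288), without both (adjusted p = 0.123) or with the Xist covariate (log2 fold change 1.80, adjusted p = 0.405, edgeR). Hoxa7 averaged 16.7 ± 8.70 CPM (SD, n = 6) in KO and 7.96 ± 5.62 CPM (n = 4) in WT, with a log2 fold change of 1.07 (adjusted p = 0.389, edgeR). Of the exonic bases of Hoxa7, 20.4% were shared with the antisense gene Hoxaas3, and the library protocol kept no strand.

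Hoxa2 to Hoxa6 did not pass the threshold, and of Hoxa7, Hoxa9 and Hoxa10 only Hoxa9 passed in the main edgeR fit. Hoxa5, a regulator of axial patterning and of organ development, had 13.0, 12.6, 15.2, 16.8, 20.7 and 20.8 CPM in KO and 1.37, 15.7, 7.99 and 15.4 CPM in WT. Its KO values lay close together while WT 15416 was far below all other libraries, and the log2 fold change was 0.71 (SE 0.52, adjusted p = 0.495, edgeR), and 0.37 without KO 15409 and WT 15416 (adjusted p = 0.615). Hoxa2, Hoxa3 and Hoxa4 had log2 fold changes of 1.04, 0.74 and 0.18 with adjusted p of at least 0.614. Hoxa6 was near the counting limit, with 0 to 14 counts in KO libraries and 0 to 2 counts in WT libraries.

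Hoxa9 and Hoxa10 together made up 17.4% to 57.4% of the summed TPM of the Hoxa cluster in KO and 11.2% to 48.6% in WT. The ranges overlapped, and the lowest KO share was that of KO 15409. By paralogue number, Hoxa2 to Hoxa5 had log2 fold changes from 0.18 to 1.04 and Hoxa6 to Hoxa10 from 1.07 to 2.85. The 2.85 was that of Hoxa6, near the counting limit with 38 counts over KO and 2 over WT, and Hoxa10 followed at 2.45. Hoxa2 at 1.04 (SE 0.98) and Hoxa7 at 1.07 (SE 0.63) differed by less than their SEs. The difference between the ends of the cluster was not tested.

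In the Hoxb cluster the median log2 fold change was 1.02 over 9 genes, the same when Hoxb6 was set at its bound, and 1 of 9 genes passed the threshold. Without WT 15416 the median was 0.60, and without KO 15409 and WT 15416 it was 0.61. Hoxb6 had no count in any of the 4 WT libraries and 13, 2, 7, 20, 52 and 5 counts in the 6 KO libraries, which was 0.792, 0.316, 0.379, 0.910, 1.61 and 0.329 CPM. The groups did not overlap. Hoxb6 was the only member of which this was true, where 2.88% of all genes tested had all KO libraries above all WT libraries and 3.48% had them below. Against a limit of 3 counts for a WT library at 0, the mean CPM of Hoxb6 was at least 2.53-fold higher in KO. 1 KO library, at 2 counts, was itself within that limit. In CPM the limit was 0.222 to 0.425 over the WT libraries, and KO 15406, 15409 and 15415 lay below the highest of these. The adjusted p of 0.0824 (edgeR) belongs to the fitted log2 fold change of 6.53 against 0 counts in WT, not to the bound. With the Xist covariate the adjusted p was 0.283, without WT 15416 it was 0.165, and without both WT 15416 and KO 15409 it was 0.106 (edgeR).

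Hoxb5, which has been used to mark LT-HSCs, had 16.4, 10.7, 17.2, 8.83, 11.97 and 9.27 CPM in KO and 0, 9.41, 6.95 and 15.6 CPM in WT. It was the Hoxb gene with the highest WT mean. The groups overlapped apart from WT 15416, and the log2 fold change was 0.64 (SE 0.84, adjusted p = 0.735, edgeR), and 0.11 without KO 15409 and WT 15416 (adjusted p = 0.912). Hoxb2, a hindbrain patterning gene, had 4.57, 4.27, 11.3, 5.14, 3.49 and 4.27 CPM in KO and 0, 6.74, 7.25 and 6.09 CPM in WT. The 3 WT libraries with counts lay above 5 of the 6 KO libraries, and the log2 fold change of 0.14 (adjusted p = 0.952, edgeR) became -0.62 (adjusted p = 0.484) without KO 15409 and WT 15416.

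The remaining Hoxb genes were low. Hoxb3 had 0.474 to 2.80 CPM in KO and 0 to 0.813 CPM in WT, with a log2 fold change of 2.64 (SE 1.13, adjusted p = 0.229, edgeR). Of the exonic bases of Hoxb3, 52.9% were shared with the antisense gene Hoxb3os, so reads of the 2 genes could not be told apart there. Hoxb4, which expands stem cells when overexpressed, had 0.657 to 4.33 CPM in KO and 0 to 3.40 CPM in WT (log2 fold change 1.02, adjusted p = 0.623, edgeR). Hoxb1, Hoxb7, Hoxb8 and Hoxb9 had log2 fold changes from -0.09 to 1.29 with adjusted p of at least 0.575. Hoxb8 never exceeded 4 counts in a library.

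The Hoxc and Hoxd genes were at the counting limit. Hoxc6 had 25 counts over the KO libraries, in 4 of the 6, and none in WT. Hoxc8 and Hoxc9 had 15 and 48 counts over KO and 2 and 11 over WT. Hoxd4 and Hoxd8 had 9 and 10 counts over KO and 7 and 3 over WT. None of the 5 passed the threshold in edgeR, Hoxc6 was the 1 gene with an unadjusted p below 0.05, and DESeq2 gave none of them an adjusted p. The median log2 fold change of the 3 Hoxc genes was 1.66 as fitted and 0.51 with Hoxc6 at its bound against 3 counts in a WT library.

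**Figure D2:**
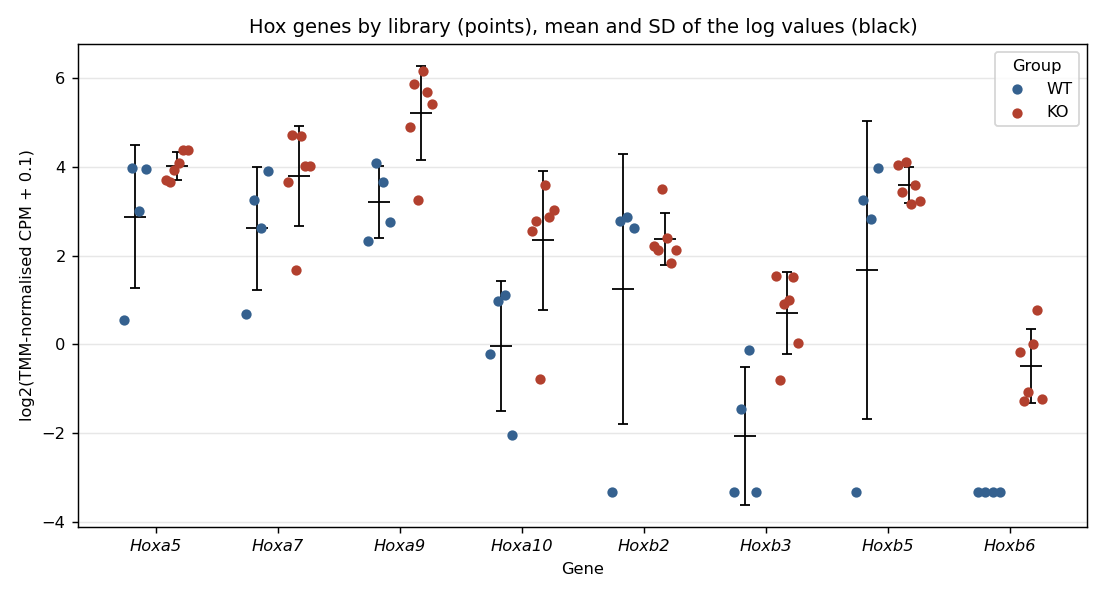
Level of 8 Hoxa and Hoxb genes in each library, as log2(CPM + 0.1) after TMM normalisation; points are libraries, and bars are the mean and SD of the log values (WT, n = 4; KO, n = 6). For Hoxa9, Hoxa10 and Hoxb3 a single KO library lay among the WT libraries. For Hoxb6 all WT libraries were at 0, and for Hoxb2 and Hoxb5 a single WT library was at 0.

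**Figure D3:**
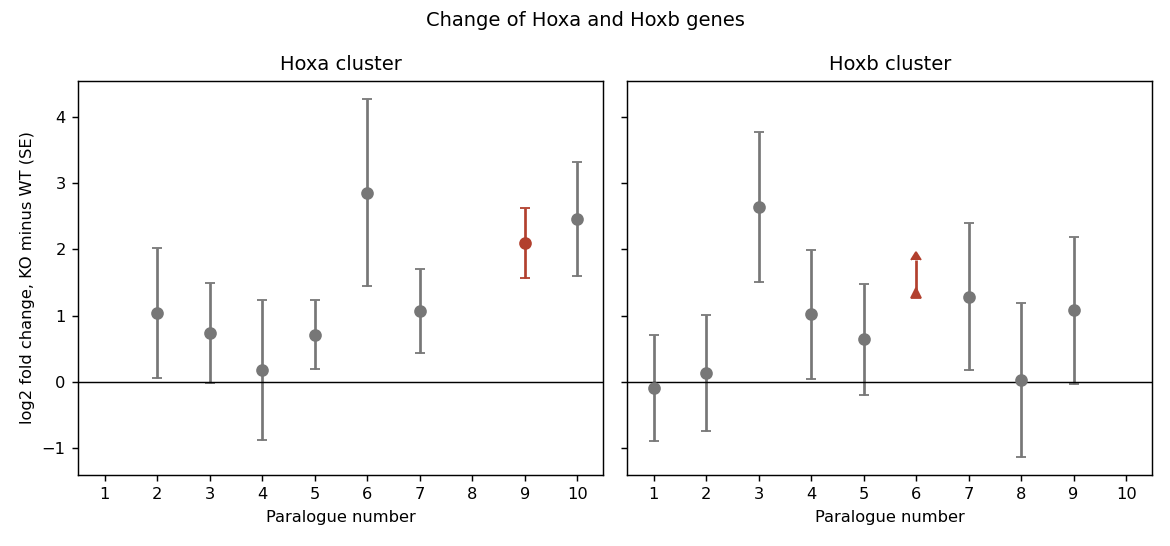
Log2 fold change (KO minus WT, edgeR) of 8 Hoxa and 9 Hoxb genes against their paralogue number; bars are the SE, red marks an adjusted p below 0.1, and the triangle and arrow for Hoxb6 mark a lower bound. Hoxa9 lay at 2.09 and Hoxa10 at 2.45, while Hoxb1 lay near 0.

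None of the 7 TALE members passed the threshold in edgeR or DESeq2, none had an unadjusted p below 0.05 in edgeR, and their median log2 fold change was 0.16, and 0.33 without KO 15409 and WT 15416. Pbx2, a broadly expressed Pbx protein, had 19.3, 22.6, 16.7, 20.02, 17.5 and 24.9 CPM in KO and 13.6, 19.7, 21.8 and 24.9 CPM in WT. The groups covered the same range, and the log2 fold change was 0.01 (SE 0.25, adjusted p = 0.985, edgeR). Pbx3, which cooperates with Hoxa9 in leukemia, had 16.0, 9.64, 31.1, 19.0, 27.7 and 13.7 CPM in KO and 11.1, 20.2, 17.0 and 22.4 CPM in WT. KO 15409 was the highest, and the log2 fold change was 0.15 (SE 0.36, adjusted p = 0.865, edgeR). Pbx4 had 8.96, 3.79, 1.25, 4.96, 7.27 and 8.48 CPM in KO and 5.46, 1.24, 3.40 and 0 CPM in WT. Its groups overlapped, with a log2 fold change of 1.18 (SE 0.91, adjusted p = 0.520, edgeR), and of 2.08 without KO 15409 and WT 15416 (adjusted p = 0.283).

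Pknox1 (Prep1), a Pbx partner needed for fetal liver hematopoiesis, had 47.2, 37.1, 49.4, 29.9, 42.8 and 33.3 CPM in KO and 31.2, 32.4, 36.2 and 21.9 CPM in WT. Its log2 fold change was 0.39 (SE 0.23, adjusted p = 0.376, edgeR), and 0.11 with an offset for transcript length. Meis2, needed in heart and craniofacial development, had 54.7, 34.3, 83.8, 30.2, 57.8 and 15.0 CPM in KO and 0.531, 44.8, 21.8 and 58.9 CPM in WT. WT 15416, with 7 counts, was the lowest, and KO 15409 was the highest (log2 fold change 0.55, SE 0.81, adjusted p = 0.771, edgeR). Meis3 had 0.0609, 1.42, 2.44, 0.455, 5.66 and 16.5 CPM in KO and 18.6, 2.75, 0.296 and 8.63 CPM in WT. It varied within each group by far more than between them (log2 fold change -0.77, SE 1.19, adjusted p = 0.782, edgeR), and WT 15416 was here the highest library. Pknox2 (Prep2), the paralogue of Pknox1, stayed at or under 3.79 CPM in all libraries.

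**Figure D4:**
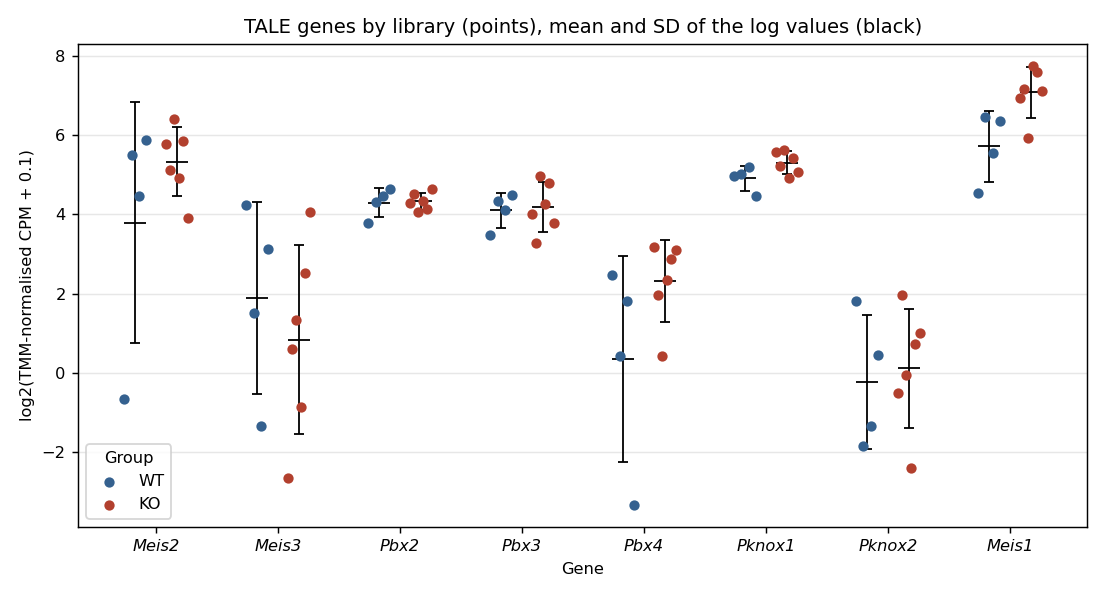
Level of the 7 TALE members and of Meis1 in each library, as log2(CPM + 0.1) after TMM normalisation; points are libraries, and bars are the mean and SD of the log values (WT, n = 4; KO, n = 6). Pbx2, Pbx3 and Pknox1 spanned narrow ranges, Meis3 a wide one, and 5 of the 6 KO points of Meis1 lay above all WT points.

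Of the 15 partners and regulators of Hox genes reported here, 11 were tested and none passed the threshold in edgeR, with a median log2 fold change of 0.20. At an unadjusted p below 0.05 in edgeR, 3 were higher and 1 was lower, where 8.6% of all genes were higher and 10.2% lower. DESeq2 with the settings of the study called 1, Meis1, higher (3.5% of all genes higher and 3.29% lower). Meis1, the Meis protein that acts with Hoxa9 in stem cells, had 123, 144, 60.5, 214, 193 and 138 CPM in KO and 23.0, 87.3, 46.2 and 81.4 CPM in WT. As for Hoxa9, KO 15409 was the KO library that lay among the WT libraries (log2 fold change 1.29, SE 0.40, adjusted p = 0.122, edgeR), and Meis1 passed the threshold without it (adjusted p = 0.0670). It did not pass without WT 15416 (adjusted p = 0.224), with the Xist covariate (adjusted p = 0.370) or with the offset for transcript length (log2 fold change 0.88, adjusted p = 0.238, edgeR). Kmt2a (Mll1), which keeps Hox genes active, had a log2 fold change of 0.86 (adjusted p = 0.129), and Ezh2, the enzyme of Polycomb repression, of -0.60 (adjusted p = 0.213, edgeR).

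Of 10 genes reported as targets of Hoxa9 or Meis1, 1 rose and none fell, where 1.32% of all genes rose and 2.67% fell. At an unadjusted p below 0.05 in edgeR, 3 were higher and none lower, where 8.6% of all genes were higher and 10.2% lower. DESeq2 with the settings of the study called 2 higher, Bcl2 and Cd34 (3.5% of all genes higher and 3.29% lower). Cd34, a surface protein of progenitors and endothelium, averaged 250 ± 48.7 CPM (SD, n = 6) in KO and 131 ± 38.5 CPM (n = 4) in WT (log2 fold change 0.93, SE 0.23, adjusted p = 0.0824, edgeR). Its call held in 8 of 18 alternatives and was lost, among others, without WT 15416 (adjusted p = 0.176), without KO 15409 and WT 15416 (adjusted p = 0.129), with the Xist covariate (adjusted p = 0.283) and with the length offset (adjusted p = 0.194, edgeR). Cd34 also stands in the LT-HSC marker list. The targets Flt3, Bcl2 and Cdk6 had log2 fold changes of 1.52, 1.09 and -0.72 with adjusted p of 0.180, 0.118 and 0.334 (edgeR).

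The genes that flank the clusters and the noncoding genes inside them were read as neighbours in the genome. Of 18 flanking genes, 13 were tested and none passed the threshold in edgeR or DESeq2, with a median log2 fold change of -0.04. At an unadjusted p below 0.05 in edgeR, none was higher and 3 were lower, where 8.6% of all genes were higher and 10.2% lower. The flanks of the Hoxa cluster, Skap2 and Hibadh, had log2 fold changes of 0.12 and -0.13. Of 10 noncoding genes of the clusters, 4 were tested and none passed in edgeR. With the settings of the study, 1, Hoxb5os, was higher in DESeq2, where 3.5% of all genes were higher and 3.29% lower. It was also the 1 gene with an unadjusted p below 0.05 in edgeR. Hoxb5os, antisense to Hoxb5, averaged 1.29 ± 0.601 CPM (SD, n = 6) in KO and 0.166 ± 0.212 CPM (n = 4) in WT (log2 fold change 2.86, adjusted p = 0.189, edgeR).

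The members differed in which cell type markers they moved with across libraries. For the 14 members with a WT mean of at least 1 TPM, log2(CPM + 0.5) was compared with the log2 summed CPM of the LT-HSC and of the endothelial markers over the 10 libraries, giving 28 relations. Hoxa9 rose with the LT-HSC sum (Pearson r = 0.907, permutation p = 0.00071, adjusted 0.00994; Spearman rho = 0.891, permutation p = 0.00105, adjusted 0.0294). Without the 2 libraries farthest from the median, KO 15411 and WT 15418, r was 0.954. The LT-HSC sum did not overlap between KO and WT, so the pooled value holds the group difference. That sum includes Cd34 and Tek, which endothelium also expresses and which in KO 15409 held 288 and 399 of its 936 CPM. In WT these genes were at 95.6 to 186 and 47.2 to 240 CPM. WT 15416, for example, held 95.6 and 47.2 of 612 CPM on them. Without these 2 genes KO 15409 lay below every WT library, so the groups did not stay apart. Within the 6 KO libraries r of Hoxa9 was 0.8905 (exact permutation p = 0.0153, adjusted 0.0713) and rho 0.943 (exact permutation p = 0.0167, adjusted 0.117). Hoxa7 behaved alike, with r = 0.755 over all libraries (permutation p = 0.0103, adjusted 0.0479) and 0.889 within KO (exact permutation p = 0.0139, adjusted 0.0713). Within KO, Hoxb5 and Pknox1 ran the other way, with r of -0.863 (exact permutation p = 0.00694) and -0.914 (exact permutation p = 0.00833) against the LT-HSC sum, both at an adjusted p of 0.0713, the lowest of the within-KO values. The WT group, with 4 libraries, was too small for a value of its own.

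Meis2, Hoxb5 and Hoxb2 rose with the endothelial sum instead. The values of r over the 10 libraries were 0.963 for Meis2, 0.910 for Hoxb5 and 0.908 for Hoxb2 (permutation p = 0.00016, 0.00294 and 0.00349, adjusted 0.00448, 0.0195 and 0.0195). The corresponding rho values were 0.758, 0.697 and 0.758 (permutation p = 0.0149, 0.0302 and 0.0148), and none of these rho values passed an adjusted 0.05. Without KO 15415 and WT 15416, the libraries farthest from the median, r fell to 0.747, 0.735 and 0.643 over 8 libraries. Within KO, r was 0.921 for Meis2 (exact permutation p = 0.0139, adjusted 0.0713), 0.825 for Hoxb5 (exact permutation p = 0.0431, adjusted 0.151) and 0.624 for Hoxb2 (exact permutation p = 0.236, adjusted 0.391). The rho values within KO were 0.714, 0.657 and 0.714 (exact permutation p = 0.136, 0.175 and 0.136, adjusted 0.293, 0.327 and 0.293). Hoxa9 had an r of 0.222 with the endothelial sum over all libraries and -0.625 within KO (exact permutation p = 0.213). The macrophage marker sum had the same extremes as the endothelial sum, with 920 CPM in KO 15409 and 89.3 CPM in WT 15416. Relations of the members with marker sums other than the LT-HSC and endothelial ones were not tested. In bulk libraries, fewer cells of a type and less RNA per cell cannot be told apart, and the part of the marker sums in the differences between KO and WT was not tested.

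**Figure D5:**
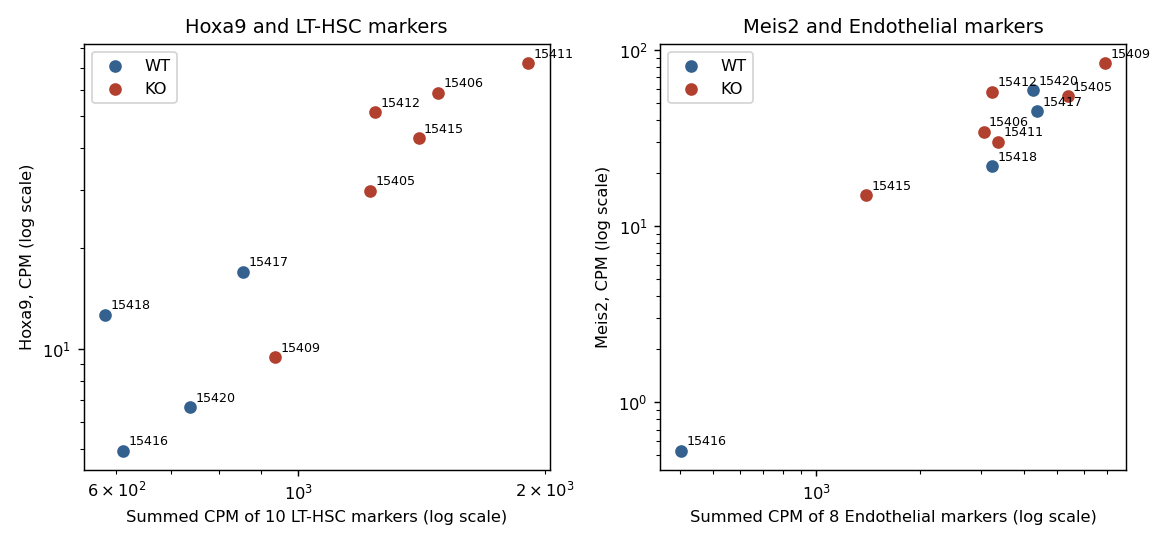
Left, Hoxa9 against the summed level of 10 LT-HSC markers; right, Meis2 against the summed level of 8 endothelial markers, both in CPM on log axes, 1 point per library labelled with its replicate number. KO 15409 lay near the WT libraries on the left, at 936 CPM of LT-HSC markers, and at the top on the right, while WT 15416 lay alone at the lower left of the right plot.

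The transcript tables showed which annotated forms carried the reads of a gene. Among the members only Hoxa9, Pbx2, Pbx3 and Pknox1 reached 1 TPM in every library. For Hoxa9, the processed transcript Hoxa9-203 (678 bases, chr6:52223963-52231089), which starts closer to Hoxa10 than the main coding form, held 46.4% ± 6.09 of the summed TPM in KO (SD, n = 6) and 32.0% ± 28.0 in WT (n = 4). The coding transcript Hoxa9-201 (chr6:52223100-52227370) held 37.0% ± 5.47 in KO and 35.9% ± 12.9 in WT, and the shorter coding form Hoxa9-202 held 14.7% ± 5.41 and 24.4% ± 16.9. The shares overlapped between groups, and in WT, where Hoxa9 had 47 to 192 counts per library, they were imprecise. In TPM, Hoxa9-201 averaged 10.9 ± 5.89 in KO and 1.79 in WT, and Hoxa9-203 averaged 13.7 ± 8.09 in KO and 2.62 in WT.

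Pbx2 was carried mainly by Pbx2-201, at 80.5% ± 16.1 in KO (SD, n = 6) and 79.9% ± 23.5 in WT (n = 4). Pknox1-201 held 77.9% ± 9.17 of Pknox1 in KO and 90.1% ± 10.6 in WT. Pbx3 was split between its coding transcripts Pbx3-202, at 61.5% ± 17.9 in KO and 70.2% ± 24.4 in WT, and Pbx3-201, at 33.0% ± 16.1 in KO and 19.6% ± 13.3 in WT. For none of these genes did the share of the main transcript separate KO from WT.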

How the data were processed

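LT-HSCs were sorted from E14.5 fetal livers and their RNA was made into unstranded SmartSeq2 libraries by the authors, sequenced single-end and pseudoaligned with kallisto 0.44.0 to Gencode vM16 (GRCm38), after bcl2fastq 2.20. The authors deposited estimated counts per gene, rounded to whole numbers, and per library the estimated counts, the TPM and the other columns of transcript length. Of 300 member values, 98% lay within 1 count of the sums over transcripts. Symbols, positions and transcripts came from Gencode vM21 on the same build and promoters and miRNAs from RefSeq.

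Gene counts with at least 11 in total were fitted in edgeR 4.0.16 (R 4.3.3, TMM, robust quasi-likelihood, genotype only, all 10 libraries), with Benjamini-Hochberg adjustment over all genes tested and a threshold of 0.1. DESeq2 1.42.0 with the study's settings was an alternative. The fit was tested on simulated data that held no changed gene as low as Hoxb6 and no library that stood apart. CPM are counts per 1000000 after TMM. Members, lists and markers were chosen with earlier results of these data known. Of the members and of the partner list, 1 gene each is not reported here. Library values are given for members past the threshold, members whose groups do not overlap, the 3 highest Hox genes of a cluster by WT TPM (from 1 TPM) and TALE members from 1 TPM in WT. Depth limits low genes, and limits of 3 counts cover counting error only.

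Of the other marker lists, summed CPM in KO and WT were 200 to 920 and 89.3 to 693 (macrophage), 192 to 2182 and 159 to 6276 (erythroblast), 10.7 to 1160 and 6.07 to 2066 (granulocyte), 157 to 3137 and 159 to 1097 (megakaryocyte), 58.0 to 5752 and 143 to 3892 (hepatoblast), 19.5 to 284 and 30.0 to 260 (mesenchymal), and 0 to 2.32 and 0 to 0.710 (lymphocyte, Cd3e at 0).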

Additional observations from a re-analysis of the deposited data

Results flagged for a closer look

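Single libraries stood apart from their group for 2 of the 11 members named with library values, by Dixon's test at its 95% critical value over 21 groups of libraries, where chance marks about 1 group in 20. Hoxb2 had 11.3 CPM in KO 15409, against 5.14 CPM in the next highest KO library, and 0 CPM in WT 15416, against 6.09 CPM in the next lowest WT library. Meis3 had 16.5 CPM in KO 15415, against 5.66 CPM in the next highest KO library.

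Signal was also present in transcript tables for genes with no row in the gene count table, above the highest WT library and above 3 counts. The antisense gene Hoxb3os reached 115 estimated counts in a KO library and 45.3 in a WT library, with means of 2.44 ± 0.803 TPM in KO (SD, n = 6) and 0.882 ± 0.853 TPM in WT (n = 4). Gm53, a noncoding gene, reached 72.9 estimated counts in KO and 14.2 in WT. Hoxa13 and Hoxd10 each reached 5 estimated counts and Hoxa11os 4 in a KO library, and all 3 were at 0 in every WT library. The rule could pick only genes whose highest library was a KO library. Among other genes without a row, Cdx2 had 9 estimated counts in WT 15418 and 0 in every KO library. Gmnn was highest in WT 15416, at 2572 estimated counts, against 2332 in KO 15412. These genes entered no test.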

How the results depend on the processing

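The calls were few and depended on single libraries. Of the 2 members higher in KO, none remained at an adjusted p below 0.05 (count 0) or with the Xist covariate (0, with 851 genes higher and 1497 lower over the whole table at an unadjusted p under 0.05 in edgeR), 1 (Hoxa9) with filterByExpr, which left Hoxb6 untested, and 1 (Hoxa9) without KO 15409 and WT 15416 together, an alternative added after the data were seen. DESeq2 called 3 with the study's settings and 4 (Hoxa9, Hoxa10, Hoxb3 and Hoxb6) without a fold-change threshold. With single libraries left out, 0 to 3 members were higher: none without KO 15405, 15406, 15411, 15412 or 15415 or WT 15416, Hoxb6 alone without WT 15418 or 15420, Hoxa9 and Hoxb6 without WT 15417, and Hoxa9, Hoxa10 and Hoxb6 without KO 15409. No alternative called a member lower, which for Hoxb6 and Hoxc6, without a WT count, could not have happened. The direction of Hoxa9 held in all 18 alternatives (log2 fold change 1.83 to 2.44, adjusted p 0.00347 to 0.283). The alternatives refit the same counts, so they were no independent check of this direction. The offset for transcript length moved the median of all genes from 0.06 to -0.15, with Hoxa9 at 1.95 there (adjusted p = 0.0805, edgeR).

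The median of Hoxa genes was 1.04, that of Hoxb genes 1.02 and that of TALE genes 0.16. With single libraries left out they ranged from 0.62 to 1.66, 0.60 to 1.09 and 0.17 to 0.41, and without KO 15409 and WT 15416 they were 0.42, 0.61 and 0.33. With the length offset they were 0.90, 0.64 and 0.029. That of Hoxc was 1.66 as fitted and 0.51 with Hoxc6 at its bound, and as fitted 1.91 in both DESeq2 fits, 2.44 with the Xist covariate, 1.38 with the length offset and 0.93 to 3.32 with single libraries left out. That of Hoxd was -0.08, and -0.72 without KO 15409 and WT 15416, -1.04 with the Xist covariate and -0.49 to 0.21 with single libraries left out. Members with all KO libraries above WT numbered 2 in TPM (with Hoxa5, 5.7% of all genes), 1 to 3 with single libraries left out (3.16% to 5.26%) and 4 without KO 15409 and WT 15416 (with Hoxa9, Hoxa10 and Pbx4, 7.0%), where 1 member, Hoxb2, lay below (6.46%). The 10 highest WT members shared 9 to 10 members with each alternative order.

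Uncalled members changed sign. Hoxb2 was at -0.15 with the length offset, -0.62 without KO 15409 and WT 15416, and -0.28 to 0.40 with single libraries left out. Without those 2 libraries Meis2 was at -0.12, Meis3 at 0.33, Pbx2 at -0.086 and Pbx3 at -0.20, and Pbx2 was at -0.0089 with the Xist covariate and -0.16 with the length offset. With single libraries left out, Meis3 ranged from -1.90 to 0.20, Pbx2 from -0.13 to 0.14 and Pbx3 from -0.034 to 0.28. The cause of these changes was not tested. No paired analysis was possible because the groups share no replicate number.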
